A study of Mus musculus with 10 samples.

Results

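Cystic kidney disease genes are genes whose mutation makes kidney tubules dilate into fluid-filled cysts. The 7 followed here, Pkd1, Pkd2, Pkhd1, Bicc1, Glis2, Glis3 and Invs, were taken by name, and every probe set that the array platform's annotation gives to exactly 1 of these symbols was used. A probe set is a group of short array probes read out as 1 intensity. The rule found 11 probe sets for 6 of the 7 genes, among 18193 genes measured by 34945 probe sets with a single symbol. Bicc1 and Invs had 3 probe sets each, Glis2 had 2, and Pkd1, Pkhd1 and Glis3 had 1 each. No probe set was listed under Pkd2, which is not analysed here.

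The samples were whole urogenital systems of mouse embryos at embryonic day 15.5, in which the kidneys lie beside the gonads, adrenal glands, ducts and bladder. In 5 RNA pools the embryos were Wnt9bcneo/cneo, carrying 2 copies of the cneo allele of Wnt9b, and these pools are called homozygous. The other 5 pools are called control; their genotype label reads Wnt9bcneo/+, whereas the titles and the series title name them wild type, and the sources used here do not settle which holds. Each pool held RNA of 1 to 2 urogenital systems and was hybridized to 1 Affymetrix array. What the cneo allele does to the gene is not in the labels, and strain and sex are not given.

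Wnt9b is a Wnt ligand secreted by the ureteric bud and its collecting ducts, and mice that lack it in these ducts are known to form renal cysts. The proteins studied here act in tubule epithelium, most of them at the primary cilium, a single antenna on each cell. Polycystin-1 (Pkd1) and polycystin-2 (Pkd2) form a receptor and channel complex in the ciliary membrane and are mutated in dominant polycystic kidney disease. Fibrocystin (Pkhd1) is a ciliary membrane protein mutated in recessive polycystic kidney disease. Inversin (Invs) defines the proximal segment of the cilium and restrains canonical Wnt signalling. Glis2 and Glis3 are zinc finger transcription factors of the Gli-related family, and Bicc1 is an RNA-binding protein.

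Pkhd1 and Glis3, the members with the largest differences among the 6 brightest probe sets, differ in the base composition of their promoters. Both promoters, from 250 bases before to 50 bases after 1 RefSeq start (GRCm38.p6), are shown because these are the members whose levels differed most. Pkhd1 lies on chromosome 1 (20057779 to 20618082) and its promoter is chr1:20618008-20618307 on the minus strand. Glis3 lies on chromosome 19 (28258851 to 28680265) and its promoter is chr19:28680028-28680327, also on the minus strand. The start used lies 25 bases inside the outer end of the Pkhd1 gene and 188 bases inside that of Glis3; it lies 53, 1261 and 5475 bases inside for Invs, Pkd1 and Pkd2. Both sequences are written 5′ to 3′ in the direction of transcription.
Pkhd1: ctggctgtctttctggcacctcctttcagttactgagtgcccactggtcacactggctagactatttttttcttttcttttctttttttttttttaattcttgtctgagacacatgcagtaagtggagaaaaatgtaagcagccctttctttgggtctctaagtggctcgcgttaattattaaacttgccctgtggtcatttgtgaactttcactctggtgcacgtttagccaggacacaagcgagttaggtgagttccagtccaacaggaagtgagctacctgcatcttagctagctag
Glis3: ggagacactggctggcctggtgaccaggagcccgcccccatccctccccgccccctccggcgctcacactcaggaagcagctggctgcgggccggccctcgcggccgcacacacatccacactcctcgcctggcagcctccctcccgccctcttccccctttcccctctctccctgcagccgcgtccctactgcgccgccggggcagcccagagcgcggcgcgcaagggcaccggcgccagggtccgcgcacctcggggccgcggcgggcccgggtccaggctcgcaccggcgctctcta

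The Pkhd1 promoter was 43.3% G and C and the Glis3 promoter 76.3%, against a median of 52.7% over 32851 mouse promoters of the same length. The TCF/LEF core CTTTGA, the type of sequence read by canonical Wnt signalling, was in 5257 of these promoters and the GLIS core TGGGGGGT in 501 (1.53%). Neither was found, on either strand, in the promoters of Pkhd1, Glis3, Pkd1, Pkd2 and Invs. A match is a description of the letters and not a binding site.

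None of the 6 measured genes differed between the genotypes past an adjusted p of 0.05 in limma, a linear model fitted to all 18193 genes with the brightest probe set of each. Over all genes 0.429% were called lower and 0.539% higher in homozygous pools. At the level of probe sets 0 of the 11 passed, against 0.231% of all 45037 tested. Before adjustment, Pkhd1 and Glis3 had p under 0.05 and both were lower in homozygous pools, as were 5.89% of all genes. The median log2 difference over the 6 genes was -0.099, against 0 over all genes, and 4 of the 6 were lower, as were 46.1% of all genes. No member had every homozygous pool under every control pool, which 2.10% of all genes did. Pools are labelled as distinct RNA pools, and the p-values measure the spread between them.

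**Figure D1:**
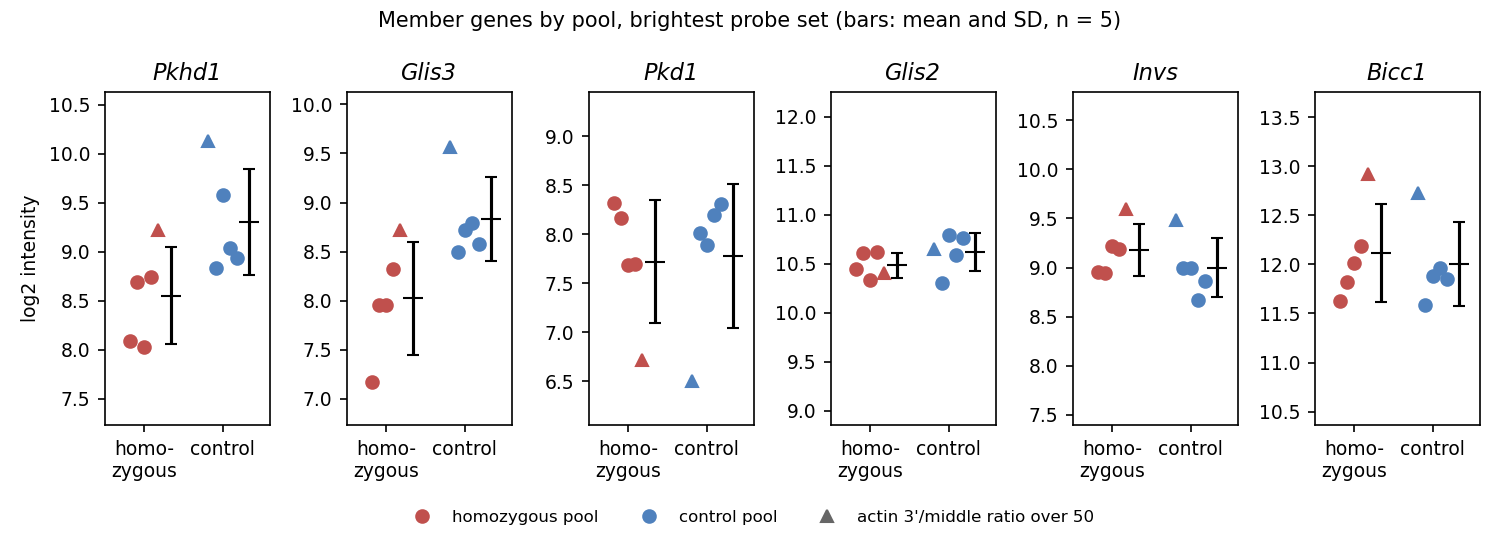
Log2 intensity of the brightest probe set of 6 genes in 5 homozygous and 5 control pools, each panel spanning the same number of log2 units. Points are pools, triangles are the array of each genotype with an actin 3′ to middle ratio over 50, and bars are the mean and SD (n = 5). Most homozygous pools lie under the control pools in the Pkhd1 and Glis3 panels, while the groups overlap throughout in the other panels.

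Of the membrane proteins, Pkhd1 (probe set 1419820_at) had intensities of 273.2, 413.8, 261.2, 427.3 and 594.3 in homozygous pools 1 to 5, and 1117, 458.5, 763.7, 525.6 and 490.5 in control pools 1 to 5. Homozygous pools 1 to 4 lay under every control pool, and homozygous pool 5 exceeded control pools 2, 4 and 5. On the log2 scale the mean was 8.55 ± 0.49 in homozygous pools and 9.30 ± 0.54 in control pools (SD, n = 5 each). The log2 difference was -0.75 ± 0.31 (SE), a geometric mean of 59.5% of the control level, with an adjusted p of 0.288 in limma. The exact two-sided permutation p was 0.0635, and 5 against 5 pools cannot give one below 0.00794. The 95% interval, not adjusted for the number of genes, ran from -1.45 to -0.045. Fewer tubule cells and less Pkhd1 RNA per cell cannot be told apart in RNA of whole tissue.

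Pkd1 (1460210_at; chromosome 17, 24548689 to 24596514) encodes the large receptor of the polycystin complex. It had intensities of 319.9, 288.4, 206.5, 208.5 and 105.8 in homozygous pools 1 to 5, and 90.75, 258.3, 237.9, 294.5 and 317.1 in control pools 1 to 5. The groups overlapped over their whole range, and the lowest pool of each genotype was the one with the high actin ratio described below. The log2 difference was -0.06 ± 0.41 (SE; limma adjusted p = 0.986). Its interval of -0.995 to 0.871 leaves room for a change of nearly 1 log2 unit in either direction.

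Among the transcription factors, Glis3 (1430353_at) showed a pattern close to that of Pkhd1. Mice without Glis3 have cystic kidneys and neonatal diabetes. Its intensities were 144.1, 247.5, 246.7, 319.3 and 422.2 in homozygous pools 1 to 5, and 762.7, 362.6, 422.6, 442.0 and 382.3 in control pools 1 to 5. Homozygous pools 1 to 4 again lay under every control pool, while homozygous pool 5 exceeded control pools 2 and 5. The log2 mean was 8.02 ± 0.57 in homozygous pools and 8.83 ± 0.43 in control pools (SD, n = 5 each). The log2 difference was -0.81 ± 0.31 (SE; limma adjusted p = 0.24), or 57.0% of the control level, and the exact two-sided permutation p was 0.0238.

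Glis2 (chromosome 16, 4594320 to 4625141) is mutated in human nephronophthisis, a cystic and fibrotic disease, and mice without it develop scarring of the kidney. Its bright probe set 1416598_at had intensities of 1398, 1568, 1284, 1569 and 1358 in homozygous pools 1 to 5, and 1611, 1264, 1765, 1538 and 1736 in control pools 1 to 5. The groups overlapped, with a log2 difference of -0.14 ± 0.10 (SE; limma adjusted p = 0.582). Its interval of -0.37 to 0.09 was the narrowest of the 6 genes. The dim probe set 1416599_at lay on the other side, at 29.23 to 70.58 in homozygous pools and 6.06 to 43.93 in control pools. It was under the floor of 16 in 1 control pool, and its log2 difference of 0.82 ± 0.35 (SE) had an adjusted p of 0.385 over all probe sets in limma. The difference was 1.10 with a floor of 1 and 0.028 with a floor of 64. The 2 probe sets of Glis2 therefore had opposite signs, neither past the threshold, and the dim one lay near the floor.

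Bicc1 (chromosome 10, 70922830 to 71159690) represses or stabilizes target messages, Pkd2 among them, and its loss gives polycystic kidneys in mice. Its brightest probe set 1436029_at had intensities of 3177, 3608, 4156, 4684 and 7743 in homozygous pools 1 to 5, and 6784, 3084, 3765, 3991 and 3695 in control pools 1 to 5. Homozygous pool 5 and control pool 1 stood far above the rest, and the genotypes overlapped. The log2 difference was 0.11 ± 0.28 (SE; limma adjusted p = 0.888).

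The second Bicc1 probe set, 1423484_at, was the steadiest of the 11 in homozygous pools, at 2585 to 2812 there and 2453 to 3321 in control pools. Its log2 difference was -0.16 ± 0.08 (SE; limma adjusted p = 0.473 over all probe sets). The third, 1441137_at, ran from 534.6 to 1575 in homozygous pools and from 800.7 to 1531 in control pools, with a log2 difference of -0.35 ± 0.32 (SE). In the 2 pools where the brightest probe set was highest, the third was at its group's lowest level. The 3 probe sets of this gene thus varied between pools in different ways, and the sources used here do not give their positions along the transcript.

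Invs (chromosome 4, 48279707 to 48431956), whose loss causes nephronophthisis with cysts and reversed left and right body sides in mice, did not separate the genotypes either. Its brightest probe set 1419308_at had intensities of 494.6, 489.7, 596.6, 584.5 and 775.0 in homozygous pools 1 to 5, and 713.5, 507.0, 511.0, 407.4 and 463.5 in control pools 1 to 5. The highest value of each genotype was again in homozygous pool 5 and control pool 1. The log2 difference was 0.18 ± 0.17 (SE; limma adjusted p = 0.665), with an interval of -0.21 to 0.58. The second probe set, 1444709_at, differed by -0.04 ± 0.12 (SE) on the log2 scale. The third, 1460491_at, was at or under the floor on 7 of the 10 arrays and carried no usable level.

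Homozygous pool 5 and control pool 1 were also the arrays whose actin control read far brighter at its 3′ end than in its middle, and this actin ratio is known to grow as RNA is degraded. The actin 3′ to middle ratio reached 97.7 in the homozygous one and 94.8 in the control one, and was 9.87 to 33.1 on the other 8 arrays. By the brightest probe set of each gene, Pkhd1, Glis3, Bicc1 and Invs had their highest value of each genotype on these 2 arrays, and Pkd1 its lowest. The same probe sets were correlated over the 10 arrays after the mean of each genotype was subtracted. Pkd1 correlated with Bicc1 at r = -0.93, with Invs at r = -0.96 and with Glis3 at r = -0.88. Pkhd1 correlated with Glis3 at r = 0.85, and Glis2 with no member beyond r = 0.39. All points share the arrays, and these 2 arrays carry much of the spread.

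**Figure D2:**
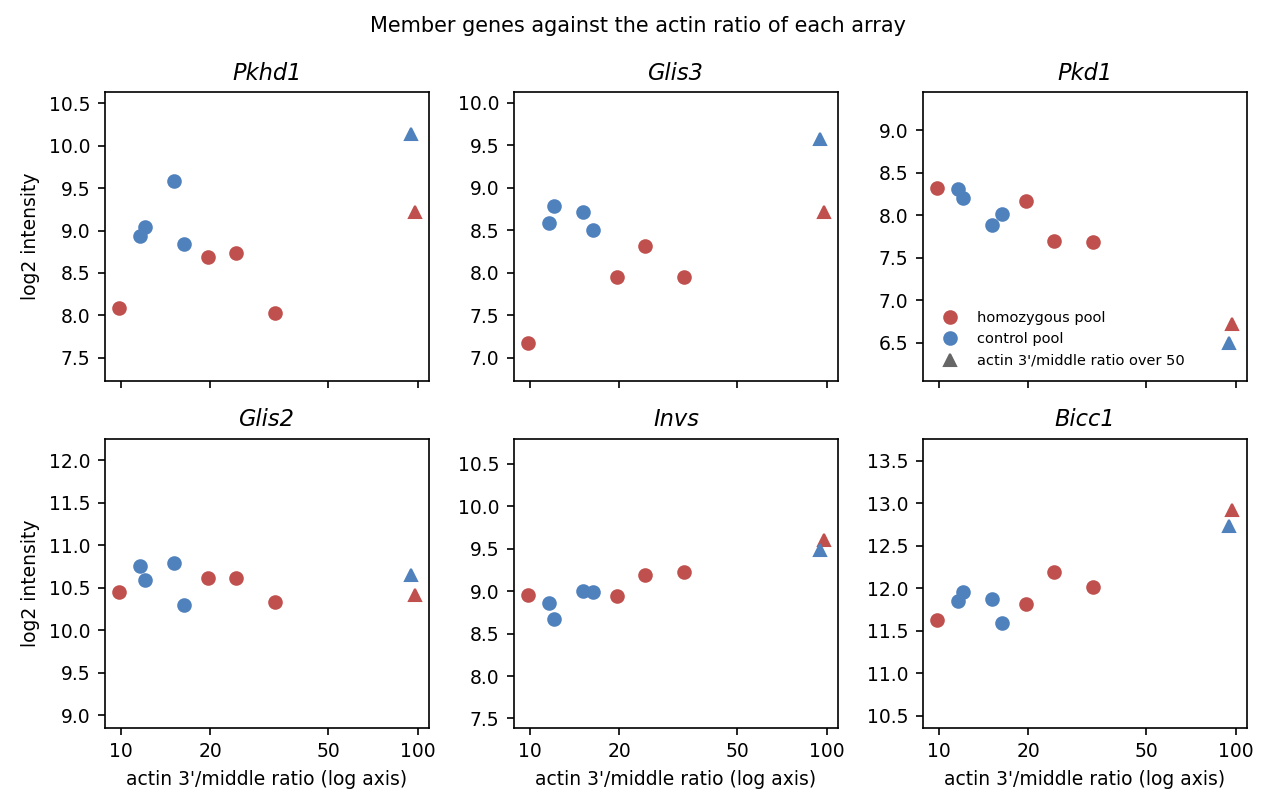
Log2 intensity of the brightest probe set of 6 genes (vertical axis) against the actin 3′ to middle ratio of each array (horizontal log axis), 1 point per pool. The 2 arrays near a ratio of 95 lie at the top for Pkhd1, Glis3, Invs and Bicc1 within their genotype and at the bottom for Pkd1, and Glis2 is level.

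The 2 arrays fell in different genotypes, so the lower levels could be examined without them. Leaving them out did not even out the actin ratio between the genotypes. It was 9.87, 19.6, 33.1 and 24.4 in homozygous pools 1 to 4. In control pools 2 to 5 it was 16.4, 15.1, 12.1 and 11.6. On the 8 remaining arrays, every homozygous pool was under every control pool for Pkhd1 and for Glis3. Of all genes 5.13% were lower in this way, and the other 4 members overlapped. The homozygous pools here, 1 to 4, are those whose sample titles end in CHP, which no control title does. Genotype and whatever that title ending stands for cannot be told apart on these arrays. The log2 difference was -0.71 for Pkhd1 and -0.80 for Glis3, with an exact two-sided permutation p of 0.0286 for each, and no smaller p can be had from 4 against 4 pools. The limma adjusted p over all genes was 0.185 for Pkhd1 and 0.154 for Glis3. Between the 2 arrays of high ratio themselves, homozygous pool 5 was lower than control pool 1 for both genes, with log2 differences of -0.911 for Pkhd1 and -0.853 for Glis3. That comparison is 1 pool against 1 pool and has no spread, so the sizes in the 2 classes of arrays were not tested against each other.

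With the log2 actin ratio as a covariate in the fit of all 10 arrays, a setting chosen after seeing the data, Glis3 passed the threshold at a log2 difference of -0.98 ± 0.15 (SE; limma adjusted p = 0.033). Pkhd1 differed by -0.89 ± 0.21 (SE; adjusted p = 0.0652), and no other member passed. In the same fit 1.39% of all genes were called lower. The covariate is set mainly by the 2 arrays of high ratio. Its slope for Pkd1 was -0.54 log2 units per doubling of the ratio, at percentile 4.50 over all probe sets. The slopes for Glis3 (0.37), the brightest Bicc1 probe set (0.34) and Pkhd1 (0.33) lay at percentiles 99.0, 98.6 and 98.2. The other 2 Bicc1 probe sets, 1423484_at and 1441137_at, had slopes of 0.03 and -0.36, at percentiles 60.2 and 9.49.

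**Figure D3:**
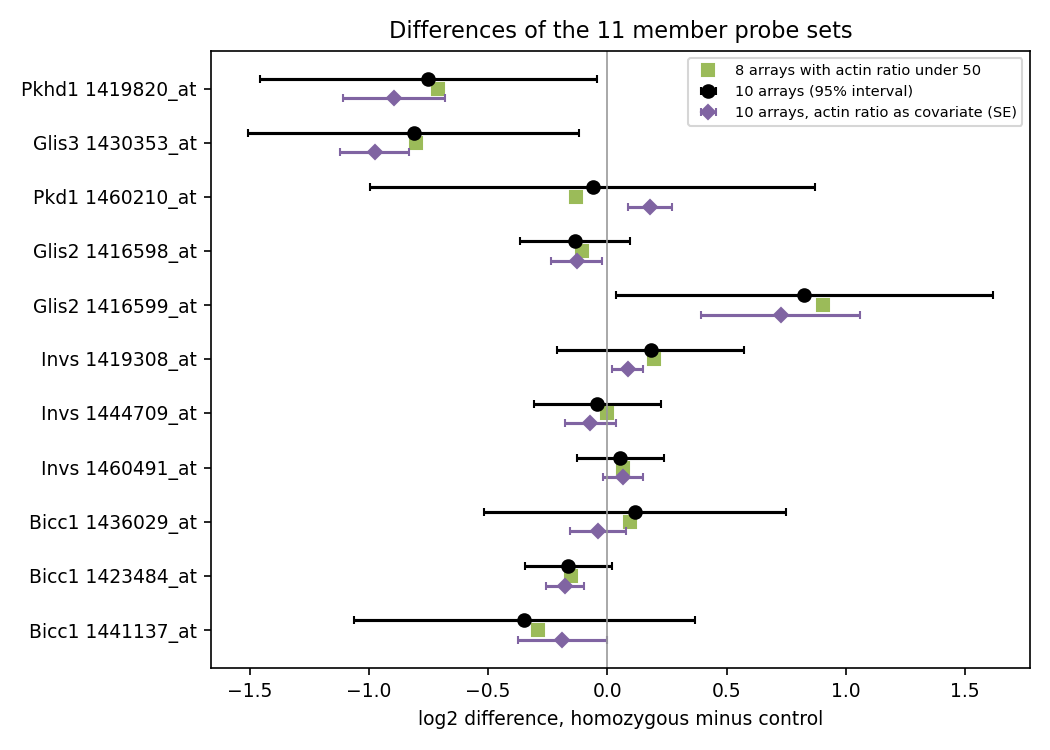
Log2 difference, homozygous minus control, for all 11 probe sets: over 10 arrays with its 95% interval (black), over the 8 arrays with an actin ratio under 50 (green) and over 10 arrays with the actin ratio as a covariate with its SE (purple). Pkhd1 and Glis3 stay between -0.71 and -0.98 in all 3, and the 2 Glis2 probe sets lie on opposite sides of 0.

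The pools also differed in Xist, which marks female tissue: homozygous pools 3, 4 and 5 had log2 levels of 13.75 to 14.27, and no other pool exceeded 6.07. Without these 3 pools the log2 difference was -0.91 for Pkhd1 and -1.27 for Glis3, with limma adjusted p of 0.589 and 0.394 over 2 homozygous and 5 control pools. In the same fit Pkd1 differed by 0.46, Bicc1 by -0.28 and Invs by -0.05, each with the sign opposite to that over all pools. This fit left out homozygous pool 5 but kept control pool 1. The high actin ratio was thus present only among its control pools, and the part of this imbalance in these values was not tested. Every pool with high Xist was homozygous, so the sex of the pools and the genotype are partly confounded.

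Markers of renal epithelium, a tissue that makes fibrocystin, were lower in the same pools. The RNA was of whole urogenital systems, so the level of these markers need not come from kidney tubules alone. Of 13 measured markers 12 were lower and 1 higher in homozygous pools, none past the threshold, with a median log2 difference of -0.72. Lhx1, a homeobox gene of early nephrons, differed by -1.58 ± 0.31 (SE; limma adjusted p = 0.0558), and the adhesion gene Epcam by -0.91 ± 0.22 (SE; adjusted p = 0.0871). The mean log2 level of the 13 markers ran from 9.52 to 10.37 in homozygous pools and from 10.70 to 10.95 in control pools, without overlap, and no marker was at the floor on all arrays. Its part in the Pkhd1 and Glis3 differences was not tested.

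Relative to this marker mean, Pkhd1 was at -1.50 ± 0.41 in homozygous pools and -1.51 ± 0.58 in control pools (log2, SD, n = 5 each), a difference of 0.02. Glis3 was at -2.03 ± 0.61 in homozygous pools and -1.98 ± 0.50 in control pools, a difference of -0.05. Both genes were therefore lower by about as much as the mean of the epithelial markers, whose single log2 differences ran from -1.7 to 0.04. Relative to the same mean, Invs differed by 0.95, Bicc1 by 0.88, Pkd1 by 0.70 and Glis2 by 0.63, against a median of 0.77 over all 18193 genes. The lower marker mean in homozygous pools raises every such value, and they have no test here.

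**Figure D4:**
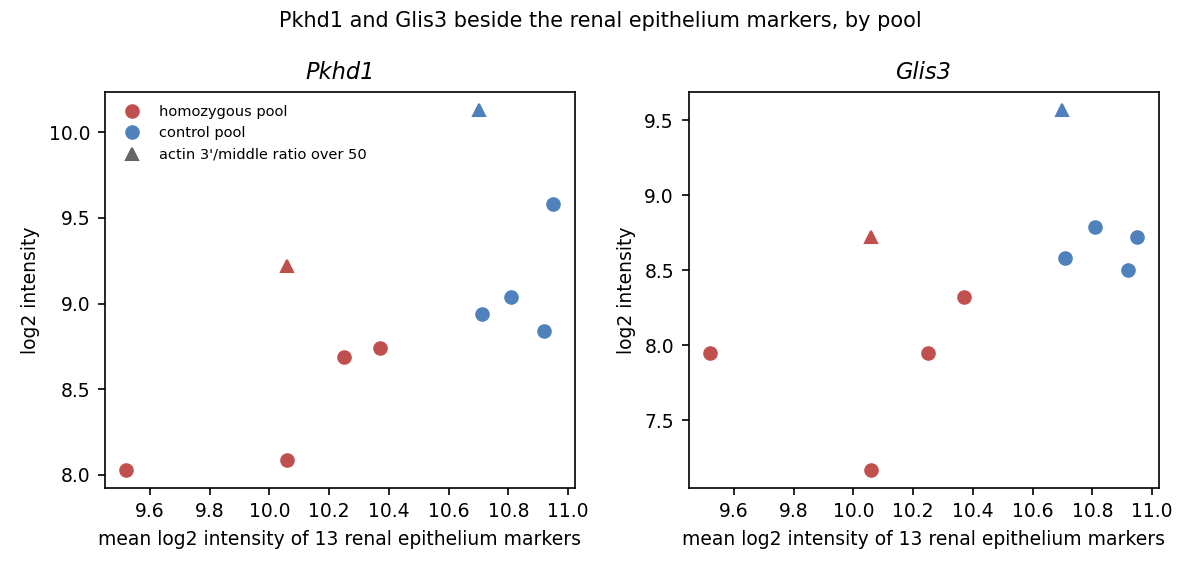
Log2 intensity of Pkhd1 and Glis3 (vertical axes) against the mean log2 intensity of 13 renal epithelium markers (horizontal axes) in each pool. Homozygous pools lie at marker means of 9.52 to 10.37 and control pools at 10.70 to 10.95, and the array of high actin ratio of each genotype, drawn as a triangle, lies above the other pools of its genotype for both genes.

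Markers of sympathoadrenal, adrenal cortex and muscle tissue ran the other way. All 11 sympathoadrenal markers were higher in homozygous pools, with a median log2 difference of 2.77 and a list mean of 9.34 to 10.61 in homozygous pools and 5.44 to 8.72 in control pools. Phox2a and Dbh, genes of noradrenergic cells, differed by 3.07 and 3.34 (limma adjusted p = 0.0558 and 0.0602). The 10 adrenal cortex markers, with Nr0b1 at 1.49 and Hsd3b1 at 4.08, had a median of 1.41, and their list means overlapped at 8.61 to 11.48 in homozygous pools and 6.06 to 10.87 in control pools. The 12 muscle markers had a median of 1.98, with Acta2 at 0.84 and Cnn1 at 2.49. The muscle list means overlapped as well, reaching 12.13 in homozygous pools and 10.76 in control pools, where the lowest was 7.17. Control pool 4, at 10.76, was above homozygous pools 2, 4 and 5. Renal stroma markers were mixed, with 7 higher, 3 lower and a median of 0.187, Meis1 at 0.44 and Aldh1a2 at -0.49. In RNA of whole urogenital systems these markers need not report on the kidney alone. Their list means overlapped at 12.23 to 12.44 in homozygous pools and 11.88 to 12.28 in control pools. No marker of these 4 lists passed the threshold, no list held a gene at the floor on all arrays, and the part of this difference in tissue make-up in the members' values was not tested.

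The other genes of the cystic disease network held no call. Of 18 measured genes of polycystic disease and polycystin biogenesis 0 passed, with 11 lower, 7 higher and a median log2 difference of -0.039. The largest were Umod, the urinary protein of the loop of Henle, at -1.27 ± 0.41 (SE; limma adjusted p = 0.17), and Kif12, a kinesin of tubule cells, at -1.12 ± 0.34 (SE; adjusted p = 0.153). Umod had intensities of 132.8, 195.3, 105.3, 258.8 and 376.5 in homozygous pools 1 to 5, and 937.9, 327.8, 500.2, 405.4 and 345.9 in control pools 1 to 5. Homozygous pools 1 to 4 were under every control pool and homozygous pool 5 exceeded control pools 2 and 5. Cys1, the ciliary protein of the cpk cystic mouse, was the only gene of this list in which every homozygous pool was under every control pool. Of all genes 2.10% were lower in this way, and Cys1 was picked out after its values were seen. Cys1 had 441.8 to 560.9 in homozygous pools and 568.6 to 1225 in control pools, with a log2 difference of -0.48 (limma adjusted p = 0.301).

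Of 19 measured genes of nephronophthisis and inversin partners 0 passed, with 9 lower, 10 higher and a median log2 difference of 0.002. Dcdc2a, a ciliary gene mutated in human nephronophthisis, differed by -0.83 ± 0.31 (SE; limma adjusted p = 0.238) and the zinc finger gene Zfp423 by 0.18 ± 0.08 (SE; adjusted p = 0.341). Dcdc2a had intensities of 835.1, 1536, 887.6, 1490 and 1868 in homozygous pools 1 to 5, and 3907, 1502, 2509, 1961 and 1918 in control pools 1 to 5. As with Pkhd1, the highest value of each genotype was on the array of high actin ratio.

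The partners of Bicc1 and the Glis factors, 10 of 12 measured, also held 0 calls and had a median of -0.135. Cnot6l, a deadenylase of the CCR4-NOT complex that Bicc1 is known to recruit, differed by -0.44 ± 0.11 (SE; limma adjusted p = 0.102). Wwtr1, which encodes the Glis3 co-activator TAZ, differed by 0.22 ± 0.06 (SE; adjusted p = 0.13). Every homozygous pool was above every control pool, with the nearest pools at 3767 and 3717. The share of all genes higher in this way was not counted. The 5 measured relatives of the polycystins and fibrocystin were dim, with list means of 4.36 to 4.83 (log2) in homozygous pools and 4.15 to 4.81 in control pools, near the floor of 4. None passed, and Pkd1l2 and Pkdrej differed by -0.25 and 0.44.

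Genes of signalling known from cystic epithelium had a median log2 difference of -0.184; 17 of the 21 measured were lower in homozygous pools and 0 passed the threshold. Met, the receptor for hepatocyte growth factor, differed by -0.75 ± 0.16 (SE; limma adjusted p = 0.0633). Cftr, the chloride channel through which cysts secrete fluid, differed by -1.11 ± 0.33 (SE; adjusted p = 0.138). In both genes every homozygous pool was under every control pool, as in 2.10% of all genes. For Cftr the nearest pools were at 181.2 and 184.5. Of the 4 that were higher, Adcy5, an adenylyl cyclase, at 1.03 (adjusted p = 0.167) and Egfr, the receptor for epidermal growth factor, at 0.69 (adjusted p = 0.143) had limma p under 0.05 before adjustment, and they were named after their values were seen.

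The genes whose levels followed each member most closely were sought among 10921 genes with a mean log2 intensity of 7 or more, by Pearson's r over the 10 arrays after the mean of each genotype was subtracted. With so many genes and 10 arrays the highest r is large by selection, and the values are descriptions. For Pkhd1 the closest were Dcdc2a (r = 0.976), Wfdc15b (0.973) and Cltrn (0.973), the last a membrane protein of proximal tubule and collecting duct. All 3 were lower in homozygous pools, by log2 differences of -0.83, -1.03 and -1.43, none past the threshold. Of all genes, 46.1% were lower. For Glis3 they were Itga6 (0.980), Ptx3 (0.977) and Plk4 (0.975), which differed by -0.08, 0.45 and 0.14. Over the 8 arrays of lower actin ratio, r was 0.952, 0.939 and 0.984 for the 3 genes named beside Pkhd1 and 0.979, 0.943 and 0.947 for those beside Glis3.

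The genes closest to Pkd1 were Cd248 (0.995), Cabin1 (0.993) and Sec61a2 (0.992). Those closest to Bicc1 were Ipo8 (0.989), Xpo7 (0.987) and Qdpr (0.983), and those closest to Invs were Tspyl3 (0.992), Mtmr4 (0.991) and Atp2a2 (0.988). Glis2 had lower values, with Prtg at 0.949, Med19 at 0.933 and Hoxc5 at 0.923. Its bright probe set, used here, was the least tied to the actin ratio among the brightest ones (slope -0.017). The dim Glis2 probe set had a slope of 0.22, at percentile 92.1 over all probe sets. None of these 12 genes beside Pkd1, Bicc1, Invs and Glis2 passed the threshold between the genotypes.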

How the data were processed

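RNA of 10 pools of mouse urogenital systems was measured on Affymetrix arrays, 5 per genotype by the genotype labels; the labels give 1 ug of total RNA as input to the cRNA synthesis. The deposited table holds 1 linear intensity for each of 45101 probe sets, made by the authors; how probes were summarized and background removed is not given in the sources used here. Trimmed by 2% at each end, every array averaged 500.003, as a global scaling leaves it, so a change in overall RNA content cannot be seen; precision is limited by the number of arrays. No 2 arrays were identical (0 pairs). The design text of the series describes another tissue and allele, and the sample labels were followed. Titles of homozygous pools 1 to 4 end in CHP and no other title does; whether these were handled apart is not given.

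After 64 Affymetrix controls were left out, 45037 probe sets remained. Values under 16 were set to 16 and taken to log2. Genes were named from the platform annotation (probe sets with 1 symbol), each represented by its brightest probe set. The genotype comparison used limma 3.58.1 under R 4.3.3 (lmFit, eBayes with an intensity trend, two-sided, Benjamini-Hochberg over all genes or all probe sets, no block), checked on simulated data. Single values were compared by exact permutation with scipy 1.17.1 over all splits. Coordinates and promoters are RefSeq's (GRCm38.p6); 5 members had a promoter. The members and gene lists were chosen with earlier results of these data known. Named genes are every member and probe set, in each other list the genes past the threshold or else the 2 with the smallest p, and for each member its 3 closest genes. Several list genes have no probe set under their symbol and are not analysed here, among them Pax2. Alternatives concerned probe set choice, a filter on dim genes, normalization, the floor, variance model, array weights, the replicate number as a block, Xist, the actin ratio and leaving out each pool.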

Additional observations from a re-analysis of the deposited data

Results flagged for a closer look

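Within a genotype, 3 of 19 groups of 5 pools with every value above the floor of 16 held a pool far from the others by Dixon's criterion, where chance gives about 5% of groups. Pkd1 had its lowest control intensity, 90.75, in control pool 1, and the other 4 ranged from 237.9 to 317.1. Glis3 had its highest, 762.7, in the same pool, against 362.6 to 442.0. The second Bicc1 probe set had its highest homozygous intensity, 2812, in homozygous pool 5, against 2585 to 2648. These 3 values were on the 2 arrays of high actin ratio. The 3 groups with a pool at or under the floor were not examined.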

How the results depend on the processing

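Over 23 alternatives 1 to 951 genes were called, against 176 (all fits held 18193 genes, except the one without the dimmest 40%, with 10916), and member genes gave 0 calls in 22. The exception was the actin ratio as a covariate, added after seeing the data, where 1 member gene and 1 member probe set passed (Glis3, -0.98) and Pkd1 differed by 0.18 and Bicc1 by -0.038, both reversed. Pkhd1 and Glis3 were lower in all 23, by -0.98 to -0.54 and -1.35 to -0.60, with limma adjusted p of 0.0652 to 0.589 and 0.033 to 0.543.

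Signs of small differences turned in the following cases, and the cause was not tested. With the mean of a gene's probe sets, Bicc1 was at -0.13 and Glis2 at 0.34. With Xist as a covariate, Pkd1 was at 0.56, Bicc1 at -0.34, Invs at -0.10 and Bicc1 1441137_at at 0.26; without the Xist-high pools they were at 0.46, -0.28, -0.055 and 0.18. With a floor of 1, Invs 1460491_at was at -0.020, and with a floor of 64, over its value on every array, its difference was 0. Leaving out each pool gave 3 to 414 gene calls and differences of -0.38 to 0.19 for Pkd1 (positive without homozygous pool 5, control pool 4 or control pool 5), -0.086 to 0.30 for Bicc1 (negative without homozygous pool 5), -0.12 to 0.0086 for Invs 1444709_at (positive without control pool 1) and -0.0095 to 0.10 for Invs 1460491_at (negative without homozygous pool 4). The sign held for Invs (0.077 to 0.30), Glis2 (-0.21 to -0.094), Bicc1 1441137_at (-0.53 to -0.14), Pkhd1 (-0.92 to -0.54) and Glis3 (-0.99 to -0.60). With a floor of 1 or 64, Glis2 1416599_at was at 1.10 or 0.028.

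With the replicate number as a block, 1 gene passed and Pkhd1 and Glis3 were at -0.75 and -0.81 (limma adjusted p = 0.588 and 0.543). Same-numbered pools did not deviate together (r = -0.553 to -0.172), and 0 of 5 homozygous pools correlated best with its own number.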
